A study of Homo sapiens with 23 samples.

Results

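BAIAP2 and TTC7A are 2 human genes whose bodies carried long runs of propionylated chromatin in SW480 cells, an established line of colorectal cancer epithelium. They were selected on their propionyl against acetyl signal after propionate, as displayed by the study, H3K18pr against H3K18ac at BAIAP2 and H4K12pr against H4K12ac at TTC7A. Every difference between the propionyl and acetyl libraries of propionate-treated cells given here is therefore a description without a test. The genes are 2 of 19552 protein-coding genes of at least 1 kb on chromosomes 1 to 22, X and Y. Their GENCODE 44 bodies with 50 kb on both sides held 1832 of the 2187390 regions in the 23 deposited lists, 701 at BAIAP2 and 1131 at TTC7A.

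The measurements were ChIP-seq, in which an antibody pulls down chromatin carrying a mark and the recovered DNA is sequenced. H3K18pr and H4K12pr, propionylation of lysine 18 of histone H3 and lysine 12 of histone H4, were mapped in cells given 10 mM sodium propionate (NaPr). H3K18bu and H4K12bu, the butyryl marks, were mapped in cells given 1 mM sodium butyrate (NaBu), and H3K18ac and H4K12ac, the acetyl marks, with NaPr, with NaBu and without treatment. That made 10 groups of 2 libraries, all from SW480, plus 1 input library of chromatin without immunoprecipitation for each condition. No label ties the replicates to separate cultures, so their spread may be technical. A region is a peak that the authors called in 1 library, and coverage is the percentage of base pairs (bp) of a stretch that lie inside regions. Coverage says where a region was called, and nothing of its height.

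Acyl groups are placed on histone lysines from the matching acyl-coenzyme A, and acetylation of H3K18 is best known from active promoters and enhancers. Propionate and butyrate, short-chain fatty acids made by gut bacteria, are abundant in the colon and also inhibit histone deacetylases. BAIAP2 encodes an adaptor with an inverse BAR (I-BAR) domain, which bends membranes outward and couples the GTPases CDC42 and RAC1 to actin assembly in cell protrusions. TTC7A encodes a scaffold of the complex that holds the lipid kinase PI4KA at the plasma membrane, and inherited loss of TTC7A damages the intestinal epithelium.

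BAIAP2 (ENSG00000175866) lies at chr17:81035122-81117434 on the plus strand of hg38. The body spans 82313 bp, and its canonical transcript has 14 exons, with a first intron of 18359 bp. TTC7A (ENSG00000068724) lies at chr2:46915869-47076137 on the plus strand and spans 160269 bp. Its canonical transcript has 20 exons and starts at position 46941224, 25.4 kb inside the annotated gene.

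The sequences that follow are those the results turn on, 5′ to 3′ on the plus strand, and capitals mark motif matches. They mark the AP-1 element TGACTCA or TGAGTCA, which are each other's complement, and the GC box GGGCGG or its complement CCGCCC. The first 3 are RefSeq promoter windows on GRCh38.p14, cut back to the bases before a start that hold no annotated exon. BAIAP2 has 4 RefSeq starts, and starts 1 and 4 are shown, at chr17:81034901-81035121 and chr17:81097361-81097578. The TTC7A window, chr2:46915817-46915865, is the 49 bases between the TTC7A start and an exon of the oppositely transcribed MCFD2, whose annotated body spans both.

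BAIAP2 start 1: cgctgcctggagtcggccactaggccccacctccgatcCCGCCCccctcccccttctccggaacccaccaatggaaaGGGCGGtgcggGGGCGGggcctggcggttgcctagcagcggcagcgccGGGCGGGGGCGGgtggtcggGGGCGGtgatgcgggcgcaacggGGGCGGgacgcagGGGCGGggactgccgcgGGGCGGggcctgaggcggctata

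BAIAP2 start 4: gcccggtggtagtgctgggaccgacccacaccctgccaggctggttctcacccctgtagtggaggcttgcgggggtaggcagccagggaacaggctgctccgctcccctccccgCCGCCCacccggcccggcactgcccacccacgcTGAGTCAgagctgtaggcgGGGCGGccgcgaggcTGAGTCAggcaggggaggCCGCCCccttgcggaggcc

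TTC7A start: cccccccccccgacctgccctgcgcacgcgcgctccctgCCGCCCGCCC

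The window of BAIAP2 start 1 was 77.8% GC with 9 GC box matches and no AP-1 match, and that of start 4 was 73.9% GC with 3 GC box matches and 2 AP-1 matches. Among 35116 RefSeq promoters, 39.1% held a GC box in the window placed like that of start 1, and 3.74% held an AP-1 match in the window placed like that of start 4. The TTC7A window held 2 GC box matches, which overlap each other, against 19.2% of promoters with at least 1.

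The next pair of sequences is the hg38 sequence under the strongest H3K18pr summit of each gene, 201 bases at chr17:81095438-81095638 and at chr2:47033693-47033893. The last sequence is the middle of the longest stretch that both H4K12pr replicates covered and both H4K12ac replicates missed in the TTC7A gap described further on, at chr2:47031560-47031760.

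BAIAP2 strongest summit: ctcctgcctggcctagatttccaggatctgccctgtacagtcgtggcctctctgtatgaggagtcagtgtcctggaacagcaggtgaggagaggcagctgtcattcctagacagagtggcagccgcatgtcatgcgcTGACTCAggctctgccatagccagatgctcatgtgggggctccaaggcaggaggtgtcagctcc

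TTC7A strongest summit: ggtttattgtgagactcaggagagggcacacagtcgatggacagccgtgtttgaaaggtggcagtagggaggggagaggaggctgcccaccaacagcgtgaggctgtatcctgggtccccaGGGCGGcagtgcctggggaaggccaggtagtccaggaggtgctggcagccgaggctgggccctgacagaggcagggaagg

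TTC7A acetyl gap: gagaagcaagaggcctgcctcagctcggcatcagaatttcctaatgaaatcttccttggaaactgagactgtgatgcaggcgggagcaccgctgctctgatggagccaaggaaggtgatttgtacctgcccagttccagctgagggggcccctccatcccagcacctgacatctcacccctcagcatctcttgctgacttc

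The BAIAP2 summit, of 99.3-fold enrichment over local background in replicate 1, had 1 AP-1 match, and the TTC7A summit, of 180.1-fold enrichment, had 1 GC box match and no AP-1 match. Of the 94121 windows of this length around all H3K18pr summits of that replicate, 3.05% held an AP-1 match and 11.01% a GC box. The TTC7A gap sequence was 55.7% GC, without a match to either motif.

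The lists differed in ways that bear on every value. The local background that the peak caller used, recovered from the fold and p of each region, was 3.38 to 8.38 fragments per kb in the 4 propionyl libraries, 24.1 to 38.6 in the 4 NaPr acetyl libraries and 11.2 to 38.5 in the untreated acetyl libraries. The shortest region was 340 to 350 bp long in the propionyl lists and 180 to 230 bp in the NaPr acetyl lists. Dates in the names of the lists fell into 3 classes, 1 for the propionyl libraries, 1 for the NaPr and untreated acetyl libraries and 1 for all NaBu libraries, so propionyl against acetyl and NaBu against untreated cannot be told apart from that date. The names of the 4 acetyl lists labelled NaBu carry the tag that marks untreated cells elsewhere, so whether those cells were given NaBu is in doubt. The sample labels, which say NaBu, were followed. The H3K18ac replicates in NaPr differed, with 202787 regions in replicate 1 and 95194 in replicate 2. They shared 20.2% of the bp in either list, while replicate 1 shared 33.2% and replicate 2 shared 29.4% with untreated H3K18ac replicate 1. The part of these differences in the results was not tested except where values without a library or at an equal number of regions are given.

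Along BAIAP2, propionyl regions covered most of the body in 3 of 4 libraries. H3K18pr covered 55.8% in replicate 1 and 44.9% in replicate 2, and H4K12pr covered 70.0% and 57.1%. Both H4K12pr libraries lay above both H3K18pr libraries, and the 3 inputs covered 0.521% to 2.98%. The H4K12pr lists held more regions, 165556 and 122532 against 94121 and 95924. With an equal number of regions in each list they overlapped, at 37.5% and 38.6% for H4K12pr against 39.9% and 34.5% for H3K18pr. As listed, H4K12pr was higher by 13.2 points, which 988 of 11646 protein-coding genes of at least 20 kb, BAIAP2 included, reached or passed. The widest H3K18pr region lay in intron 6 in both replicates, 6840 bp at chr17:81092051-81098890 and 6717 bp at chr17:81092094-81098810. The widest H4K12pr regions were 7715 bp in intron 3 at chr17:81066466-81074180 and 5277 bp in intron 1 at chr17:81042377-81047653. The summit of the intron 6 region was also the highest of H3K18pr in the body, 99.3-fold and 48.4-fold, whereas H4K12pr reached 23.5-fold and 23.6-fold.

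**Figure D1:**
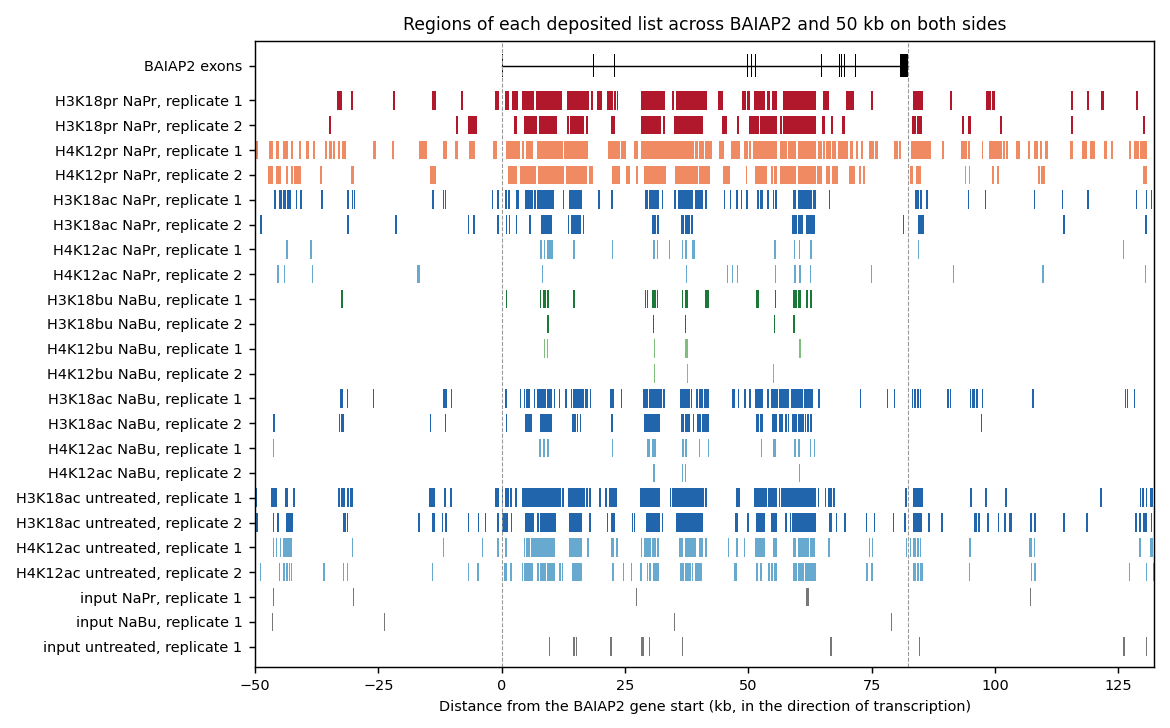
Regions of the 23 lists across BAIAP2 with 50 kb on both sides, with distance from the gene start in kb on the horizontal axis and 1 row per library on the vertical axis, with canonical exons in black on top and dashed lines at the gene ends. The 4 propionyl rows form blocks inside the gene, the untreated H3K18ac rows form blocks at the same places, and the butyryl rows hold 3 to 18 short regions in the body.

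Regions less than 1 kb apart joined into still longer domains at BAIAP2. H3K18pr replicate 1 formed a domain of 19657 bp from 0.710 to 20.4 kb after the start, and H4K12pr replicate 1 one of 26760 bp from 46.6 to 73.3 kb. The longest joined domain of NaPr acetylation was 6762 bp for H3K18ac and 2604 bp for H4K12ac. Untreated H3K18ac reached 13921 bp in replicate 1, from 4.16 to 18.1 kb, and 6342 bp in replicate 2, and H3K18ac in NaBu reached 13835 bp and 8160 bp. Joined domains above 13 kb were thus seen in all 4 propionyl lists and in 1 H3K18ac list each of untreated and NaBu cells.

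All 4 propionyl lists covered the same 27365 bp of BAIAP2, 33.2% of the body, in 25 stretches. Of these stretches 5 were at least 2 kb long. They lay 7.51 to 11.1 kb and 13.9 to 16.7 kb after the start in intron 1, at 28.8 to 31.2 kb and 37.0 to 39.1 kb in intron 3, and at 60.1 to 63.7 kb in intron 6. The last, chr17:81095196-81098810, was the longest with 3615 bp and contains the strongest summit and RefSeq start 4. Untreated H3K18ac replicate 1 covered each of the 5 at 100%, and replicate 2 covered 79.2% to 99.6%. In NaPr, H3K18ac covered 82.6% to 95.7% of each in replicate 1 and 32.1% to 81.7% in replicate 2, and H4K12ac at most 48.2%.

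Over all shared BAIAP2 bp, untreated H3K18ac covered 96.9% and 82.4%, and untreated H4K12ac 71.1% and 63.3%. H3K18ac in NaPr covered 73.1% and 45.6%, and H3K18ac in NaBu 74.0% and 61.6%. Of the 27365 bp, 440 bp lay in no list of NaPr acetylation, untreated acetylation or NaBu H3K18ac.

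Propionyl coverage was low at the annotated start of BAIAP2 and at its 3′ end. Within 1 kb on both sides of the gene start, H3K18pr covered 34.9% and 0%, and H4K12pr 5.30% and 0%, and no propionyl region contained the start base. Untreated H3K18ac covered 60.5% and 69.2% there, and H3K18ac in NaPr 37.1% and 26.2%. RefSeq start 4, 62.5 kb downstream, was covered at 100% within 1 kb on both sides in all 4 propionyl and both untreated H3K18ac lists, at 93.6% and 92.9% by H3K18ac in NaPr and at 16.9% and 15.7% by H4K12ac in NaPr. The NaPr input had 25.2% coverage at that start, and the other inputs 0%. Starts 2 and 3, at 47.9 and 48.4 kb, were covered by propionyl lists at 0% to 67.5%.

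With the body cut into 10 equal segments, mean H3K18pr coverage of BAIAP2 was highest in segment 8, at 83.8% and 79.1%, and in segment 2, at 88.3% and 71.6%. It was 6.20% and 0% in segment 10, and H4K12pr was 32.6% and 0% there. The first intron was covered at 80.4% and 57.1% by H3K18pr and at 80.2% and 83.5% by H4K12pr. Exons of the canonical transcript were covered at 9.75% and 13.3% by H3K18pr, against 57.7% and 46.3% for its introns. H4K12pr covered 43.6% and 16.9% of the exons and 71.1% and 58.8% of the introns. The longest exon, exon 14 at 80.6 to 82.3 kb, lies in segment 10. Untreated H3K18ac also covered less of the BAIAP2 exons, 20.2% and 23.5%, than of the introns, 53.3% and 38.4%. At TTC7A the order over all exon bp together was the reverse. There H3K18pr covered 55.66% and 55.70% of the exons against 36.9% and 30.9% of the introns, and H4K12pr 72.4% and 66.8% against 51.3% and 47.2%. Much of that exon coverage is exon 20, the longest, at 157.8 to 160.3 kb, which all 4 propionyl lists covered at 100%. The order therefore need not hold for the other exons. Untreated H3K18ac had the same order at TTC7A, 53.2% and 43.8% of the exons against 34.7% and 25.7% of the introns.

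Along TTC7A, the propionyl marks were densest in segments 8 and 10. H3K18pr covered 34.0% and 28.7% of the body, and H4K12pr 47.4% and 43.3%, against 0.318% to 0.724% in the inputs. As at BAIAP2, both H4K12pr libraries lay above both H3K18pr libraries, but not with an equal number of regions in each list. H4K12pr then covered 26.6% and 23.6%, and H3K18pr 25.1% and 19.4%. As listed, H4K12pr was higher by 14.0 points, which 881 of the 11646 genes, TTC7A included, reached or passed. In segment 8, H3K18pr covered 92.3% and 79.8% and H4K12pr 89.1% and 88.4%, and in segment 10 H3K18pr covered 81.8% and 70.4% and H4K12pr 79.0% and 80.3%. In segment 1 no propionyl library covered more than 14.2%. Segment 9, between both domains, was lower in all 4 libraries than either neighbour, 10.6% to 54.0%.

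**Figure D2:**
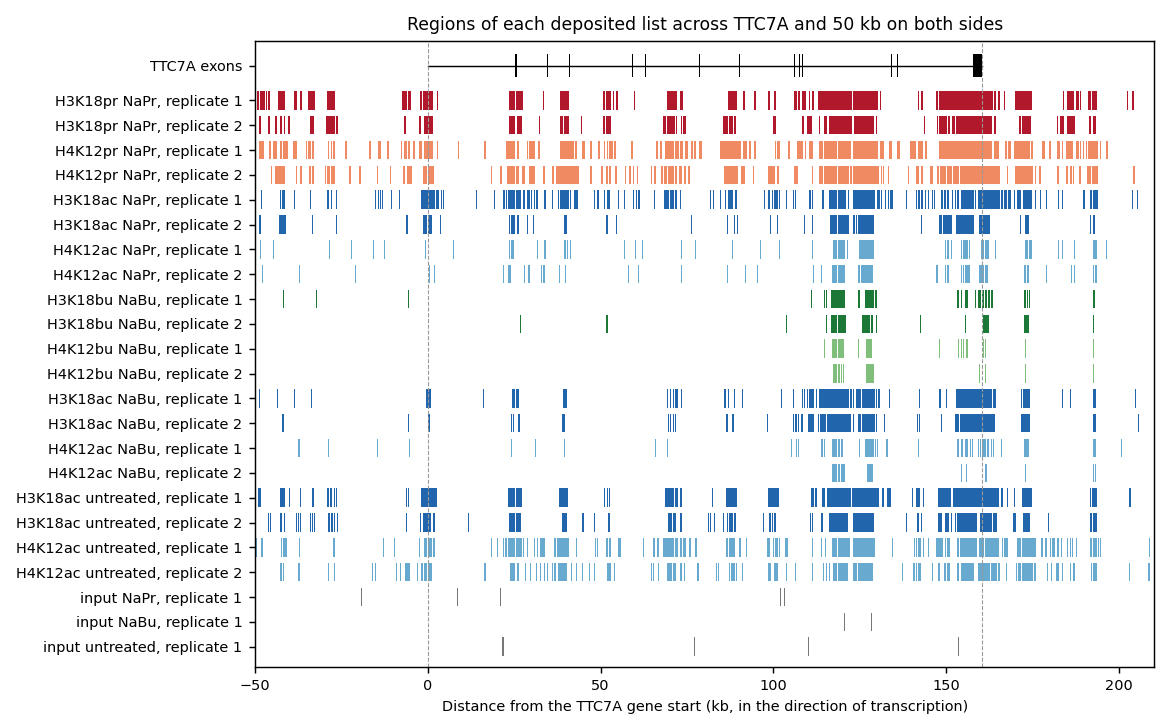
Regions of the 23 lists across TTC7A with 50 kb on both sides, with distance from the gene start in kb on the horizontal axis and 1 row per library on the vertical axis, with canonical exons in black on top and dashed lines at the gene ends. Blocks at about 113 to 132 kb and at the 3′ end stand out in the propionyl and untreated H3K18ac rows, and the regions of the butyryl rows gather in the first of them.

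The domain in segment 8 lay in intron 15 of TTC7A. Joined across distances under 1 kb, H3K18pr replicate 1 spanned 18243 bp there, from 113.0 to 131.2 kb after the gene start. H4K12pr spanned 18861 bp and 18944 bp, from 113.1 and 113.2 kb to 132.0 and 132.1 kb. The longest joined domain of H3K18pr replicate 2 was instead at the 3′ end, 16132 bp from 147.2 to 163.3 kb. Intron 15 holds the strongest propionyl summit of the gene in all 4 libraries, 117.9 to 118.0 kb after the start. Enrichment there was 180.1-fold and 97.3-fold for H3K18pr and 44.9-fold and 44.8-fold for H4K12pr. Untreated H3K18ac replicate 1 formed a domain of 19869 bp from 114.1 to 133.9 kb, with a summit of 38.9-fold. H3K18ac replicate 1 in NaBu formed one of 22535 bp from 108.2 to 130.7 kb. Domains of this length at this place were thus also present in 1 H3K18ac list each of untreated and NaBu cells, while H3K18ac in NaPr joined into 12603 bp and 5991 bp at most in the gene.

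The widest single regions of TTC7A were at its 3′ end, over intron 19 and exon 20. They were 15608 bp and 9336 bp for H3K18pr, at chr2:47063718-47079325 and chr2:47069880-47079215, and 13290 bp and 9423 bp for H4K12pr, at chr2:47063689-47076978 and chr2:47069865-47079287. All 4 ran past the annotated gene end at 47076137. The widest H3K18ac regions in NaBu, 8156 bp and 8594 bp, and in untreated replicate 1, 13082 bp, lay over the same exon. In NaPr the widest acetyl regions lay in intron 15 in all 4 libraries, 2472 to 6518 bp long.

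All 4 propionyl lists shared 34931 bp of TTC7A, 21.8% of the body, in 26 stretches. Of these 4 were at least 2 kb long, 3 in intron 15 between 116.0 and 129.2 kb and the longest, 6258 bp at chr2:47069880-47076137, at the 3′ end. Untreated H3K18ac covered these 4 at 100% in replicate 1 and 91.1% to 99.6% in replicate 2 for those in intron 15, and at 100% and 90.5% for that at the 3′ end. Over all shared bp, untreated H3K18ac covered 96.5% and 79.4%, H3K18ac in NaPr 81.5% and 64.3%, and H4K12ac in NaPr 37.1% and 33.0%. Only 106 bp lay in no list of NaPr acetylation, untreated acetylation or NaBu H3K18ac.

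The gene start of TTC7A was covered, unlike that of BAIAP2. Within 1 kb on both sides of it, H3K18pr covered 100% in both replicates and H4K12pr 88.9% and 85.6%. Untreated H3K18ac also covered 100% in both, H3K18ac in NaPr 92.3% and 82.9%, and H4K12ac in NaPr 13.9% and 9.65%. All 4 butyryl lists were at 0%. A single H3K18pr region crossed the start base in each replicate, 3092 bp and 2622 bp wide, while both H4K12pr libraries had a region on each side and none over the base itself. At the start of the canonical transcript, 25.4 kb downstream and beside the annotated start of MCFD2, H3K18pr covered 79.2% and 76.6% and H4K12pr 75.3% and 83.6%.

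Body coverage in NaPr differed most at H4K12. At BAIAP2, H4K12ac covered 6.83% and 3.56%, so that H4K12pr was higher by 58.3 percentage points, from means of 63.5 ± 9.15% against 5.20 ± 2.31% (SD, n = 2). At TTC7A, H4K12ac covered 10.5% and 10.7%, and the difference was 34.7 points, from 45.3 ± 2.86% against 10.6 ± 0.110%. Both H4K12pr libraries lay above both H4K12ac libraries at both genes, as they did at 60.4% of the 17447 protein-coding genes with a region in any of the 4 lists. With an equal number of regions in each list that count went from 10541 to 2733 genes, and the differences became 37.9 points at BAIAP2 and 19.9 points at TTC7A. Of 11646 protein-coding genes of at least 20 kb, 9 including BAIAP2 had a difference at least as large as that of BAIAP2, and 163 including TTC7A one at least as large as that of TTC7A.

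At H3K18 the members diverged. H3K18ac in NaPr covered 32.7% and 16.5% of BAIAP2, and H3K18pr was higher by 25.8 points, the highest value among the 11646 genes, with a median of -0.300 over them. Both H3K18pr libraries lay above both H3K18ac libraries at BAIAP2, as at 13.5% of 17454 genes. At TTC7A, H3K18ac in NaPr covered 35.96% and 17.4%, on either side of the H3K18pr values, and the mean difference was 4.64 points. That difference turned to -4.63 points without H3K18ac replicate 2, and became 13.9 points without replicate 1 and 10.7 points with an equal number of regions. The count of genes behind the 13.5% also depended on replicate 1 of H3K18ac, being 2353 with it and 8318 without it.

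**Figure D3:**
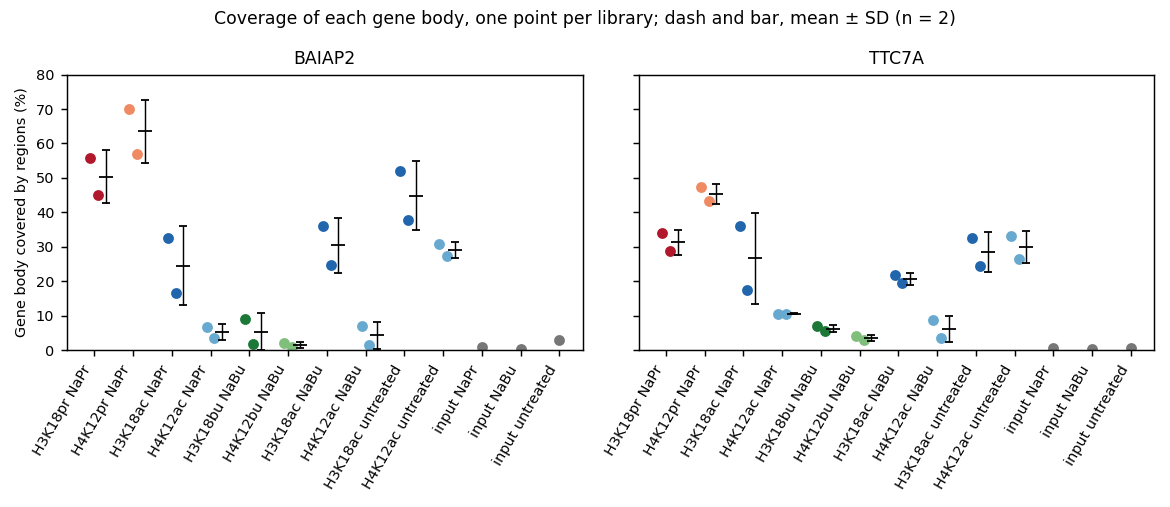
Percentage of each gene body covered by regions on the vertical axis, by group on the horizontal axis, with 1 point per library and a dash and bar for the mean and SD of the 2 replicates (inputs have 1 library). H4K12pr lies highest at both genes, and the untreated H3K18ac points, 37.7% and 51.9% at BAIAP2 and 24.4% and 32.5% at TTC7A, overlap the range of the H3K18pr points.

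Set against untreated acetylation, the H3K18 difference was small. Untreated H3K18ac covered 51.9% and 37.7% of BAIAP2 and 32.5% and 24.4% of TTC7A, overlapping H3K18pr at both genes. H3K18pr was higher by 5.51 points at BAIAP2 and by 2.87 points at TTC7A, differences that 195 and 685 of the 11646 genes, the members included, reached or passed. Neither gene had both H3K18pr above both untreated H3K18ac, which 14.7% of 17566 genes had. Untreated H4K12ac covered 30.8% and 27.5% of BAIAP2 and 33.2% and 26.6% of TTC7A, and both H4K12pr libraries lay above both at both genes, as at 25.8% of 17382 genes. H4K12pr was higher than untreated H4K12ac by 34.4 points at BAIAP2 and by 15.4 points at TTC7A, which 7 and 245 genes reached or passed.

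**Figure D4:**
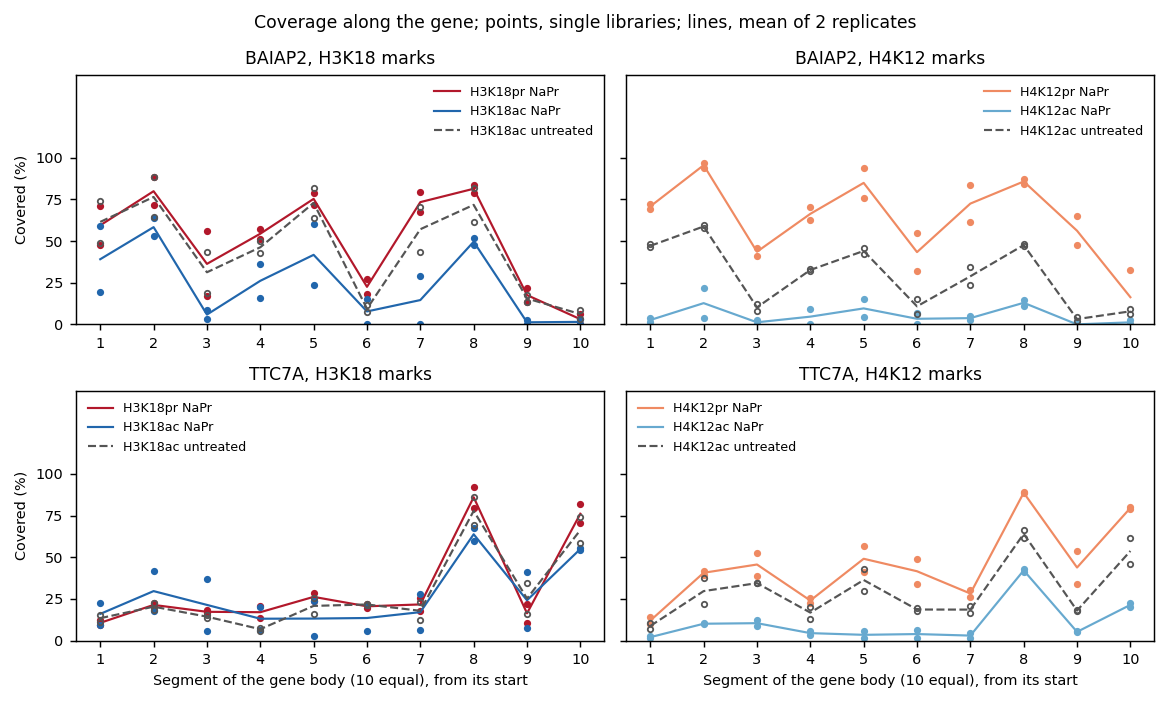
Percentage covered (vertical axis) in each of 10 equal segments of the gene body, counted from its start (horizontal axis), for propionyl and acetyl lists of NaPr cells and for acetyl lists of untreated cells, with points for single libraries and lines for the mean of 2 replicates. H3K18pr and untreated H3K18ac have similar profiles along both genes, high in segments 2, 5 and 8 of BAIAP2 and in segments 8 and 10 of TTC7A.

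Untreated acetylation was also the reference against which NaPr acetylation was lower. At BAIAP2 the mean difference over both histone sites, NaPr minus untreated, was -22.1 points, from 24.6 ± 11.4% against 44.8 ± 10.0% for H3K18ac and 5.20 ± 2.31% against 29.1 ± 2.33% for H4K12ac (SD, n = 2). At TTC7A it was -10.5 points, from 26.7 ± 13.1% against 28.5 ± 5.77% and from 10.6 ± 0.110% against 29.9 ± 4.63%. The H4K12ac libraries did not overlap between conditions at either gene, which was so in this direction at 68.5% of 17364 genes. The H3K18ac libraries did not overlap at BAIAP2, as at 15.3% of 17526 genes, and overlapped at TTC7A. The TTC7A difference was -5.90 points without H3K18ac replicate 2 of NaPr and -5.36 points with an equal number of regions. No test was made, because the NaPr acetyl libraries were 1 side of the comparison that selected the genes.

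A gap is a stretch of the body between consecutive regions of the merged lists of the 2 NaPr acetyl replicates of a site. H3K18ac left 33 gaps in BAIAP2, 52822 bp or 64.2% of the body, with a median length of 771 bp. H3K18pr covered 38.8% and 25.7% of the gap bp, and both replicates covered the same 17.96%. They also covered 89.99% and 83.1% of the bp inside H3K18ac regions, so that propionyl coverage was denser on acetyl regions than between them. In the reverse direction, H3K18ac covered 6.03% and 0.856% of the bp between the merged regions of the 2 H3K18pr replicates.

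H4K12ac left 19 gaps in BAIAP2, 60164 bp, and H4K12pr covered 72.3% and 58.5% of them. H4K12ac covered, in both replicates, 0% of the 15778 bp between the merged regions of the 2 H4K12pr replicates. Every H4K12ac bp inside the outermost H4K12pr regions thus lay in a region of at least 1 H4K12pr replicate. Taken singly, the H4K12pr replicates covered 95.7% and 87.9% of the bp inside H4K12ac regions. Both H4K12pr replicates covered at least 90% of 6 of the 19 gaps.

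In TTC7A, H3K18ac left 96 gaps with a median length of 415 bp, and H3K18pr covered 13.7% and 11.3% of their 96459 bp. Both H3K18pr replicates reached into 25 of the 96. H4K12ac left 49 gaps, 136097 bp or 84.9% of the body, and H4K12pr covered 42.1% and 36.9%. Inside the acetyl regions of TTC7A, H3K18pr covered 64.6% and 55.0% and H4K12pr 77.0% and 79.8%. The filling of gaps was therefore larger at H4K12 than at H3K18 in both genes, and larger in BAIAP2 than in TTC7A at both sites. Mean propionyl coverage of the whole body had the same order, so this is not a separate result about gaps. It was 63.5% in BAIAP2 and 45.3% in TTC7A for H4K12pr, and 50.4% and 31.3% for H3K18pr. Gaps depend on the lists that define them, and those between regions that both acetyl replicates held were filled at 53.6% in BAIAP2 and 21.2% in TTC7A at H3K18.

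The BAIAP2 gap with the most bp covered by both H3K18pr replicates was chr17:81090873-81094067, 3195 bp in intron 6. H3K18pr covered 66.1% and 75.8% of it and H4K12pr 74.0% and 83.2%, while all 4 NaPr acetyl lists were at 0%. The edge of the widest H3K18pr region lies in this gap. H3K18ac in NaBu covered 79.4% and 55.2% of the same gap, and untreated H3K18ac 87.9% and 16.7%. The next was chr17:81057672-81064132, 6461 bp over introns 2 and 3 and exon 3, with 24.3% and 17.5% H3K18pr. There untreated H3K18ac covered 27.1% and 13.8%, and the untreated input 8.65%.

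The TTC7A gap with the most bp covered by both H4K12pr replicates was chr2:47030004-47032873, 2870 bp in intron 15, with 90.7% and 92.8% H4K12pr and 100% and 65.2% H3K18pr. H3K18ac was present there in every condition, at 56.2% and 18.6% in NaPr, 87.2% and 87.1% in NaBu and 83.0% and 36.1% in untreated cells. The second was chr2:47072877-47075366, 2490 bp over intron 19 and exon 20, which all 4 propionyl lists covered at 100%. Both H3K18ac lists in NaBu also covered it at 100%, untreated H3K18ac at 100% and 82.3%, and H3K18ac in NaPr at 63.1% and 41.5%. Untreated H4K12ac covered it at 77.6% and 45.3%. H4K12ac in NaPr, whose absence defined both gaps, was at 0% in both replicates.

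Over all gap bp that both propionyl replicates covered, untreated H3K18ac covered 82.0% and 39.5% at the H3K18 gaps of BAIAP2 and 57.5% and 20.6% at those of TTC7A. At the H4K12 gaps it covered 78.4% and 53.6% in BAIAP2 and 70.9% and 44.8% in TTC7A. Untreated H3K18ac replicate 1, the higher in each pair, was, of the NaPr and untreated acetyl lists, the nearest to the propionyl lists in its background, 11.2 fragments per kb, and in its median region width, 514 bp against 460 to 513 bp. Butyryl lists covered at most 15.5% of the filled bp, and inputs at most 5.96%.

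The 4 butyryl lists of NaBu cells were short, at 8158 to 22497 regions against 11680 to 116459 in the NaBu acetyl lists, and covered little of either gene. The median protein-coding gene of at least 20 kb had 0% in each. Of 11646 such genes, BAIAP2 included, 72 and 872 had at least as much H3K18bu and 233 and 577 at least as much H4K12bu. For TTC7A the counts were 132 and 144 for H3K18bu and 75 and 82 for H4K12bu. H3K18bu covered 9.18% and 1.74% of BAIAP2 against 36.2% and 24.9% for H3K18ac, and H4K12bu 2.24% and 0.910% against 7.12% and 1.52% for H4K12ac. At TTC7A, H3K18bu covered 6.95% and 5.51% against 21.9% and 19.4%, and H4K12bu 4.26% and 3.09% against 8.87% and 3.62%. H3K18bu lay below H3K18ac in both replicates at both genes, as at 66.5% of 15800 genes, and the H4K12 libraries overlapped at both genes, with 20.4% of 13209 genes showing H4K12bu wholly below. The mean difference over both sites was -13.9 points at BAIAP2 and -8.49 points at TTC7A, each with p = 0.111 in a two-sided exact permutation test within sites. With an equal number of regions they were -7.21 points, with exact permutation p = 0.167, and -3.64 points, with exact permutation p = 0.222. That test allowed no p below 0.0556 over its 36 arrangements, and the Benjamini-Hochberg adjusted p over 4 tests, 2 genes by 2 contrasts, was 0.111 in every exact test.

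The strongest butyryl regions lay inside stretches covered by propionyl lists, which covered 44.9% to 70.0% of BAIAP2 and 28.7% to 47.4% of TTC7A. In BAIAP2 the strongest region of each butyryl list lay in intron 3, 30.8 to 37.7 kb after the start, with 3.62-fold to 6.30-fold enrichment. No H4K12bu region of BAIAP2 passed q under 0.05, where H4K12bu covered 0% in both replicates and H3K18bu 2.28% and 1.19%. At TTC7A the butyryl lists covered 2.58% to 4.75% at that cut. In TTC7A the strongest region of each butyryl list lay in intron 15, 118.1 to 127.7 kb after the start, with 7.26-fold to 15.2-fold enrichment. Segment 8 of TTC7A held 24.4% to 40.8% butyryl coverage in the 4 lists, beside 84.9% and 80.3% H3K18ac and 35.7% and 29.4% H4K12ac in NaBu. At the TTC7A stretch shared by all propionyl lists from 116.0 to 118.5 kb, H3K18bu covered 69.7% and 61.1% and H4K12bu 53.6% and 49.5%. The NaBu acetyl lists covered more of that stretch, 92.0% and 100% for H3K18ac and 60.5% and 65.2% for H4K12ac.

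Acetyl coverage was lower in the libraries labelled NaBu than in those of untreated cells at both genes. At BAIAP2 the means were 30.5 ± 7.996% in NaBu against 44.8 ± 10.0% in untreated cells for H3K18ac, and 4.32 ± 3.96% against 29.1 ± 2.33% for H4K12ac (SD, n = 2). At TTC7A they were 20.6 ± 1.70% against 28.5 ± 5.77% and 6.25 ± 3.71% against 29.9 ± 4.63%. The mean difference over both sites was -19.6 points at BAIAP2 and -15.7 points at TTC7A, each with p = 0.0556 in the exact permutation test, the smallest it can give, and an adjusted p of 0.111. No library of either site overlapped between conditions at either gene, as at 60% of 17476 genes for H3K18ac and 79.4% of 17138 genes for H4K12ac. With an equal number of regions in each list the differences were -13.3 and -6.04 points, so that of TTC7A was less than the 15.7 points above by more than the replicate SD. The NaBu lists carry another date than the untreated lists, so treatment and date cannot be told apart, and the treatment itself is in doubt from the names of the lists.

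**Figure D5:**
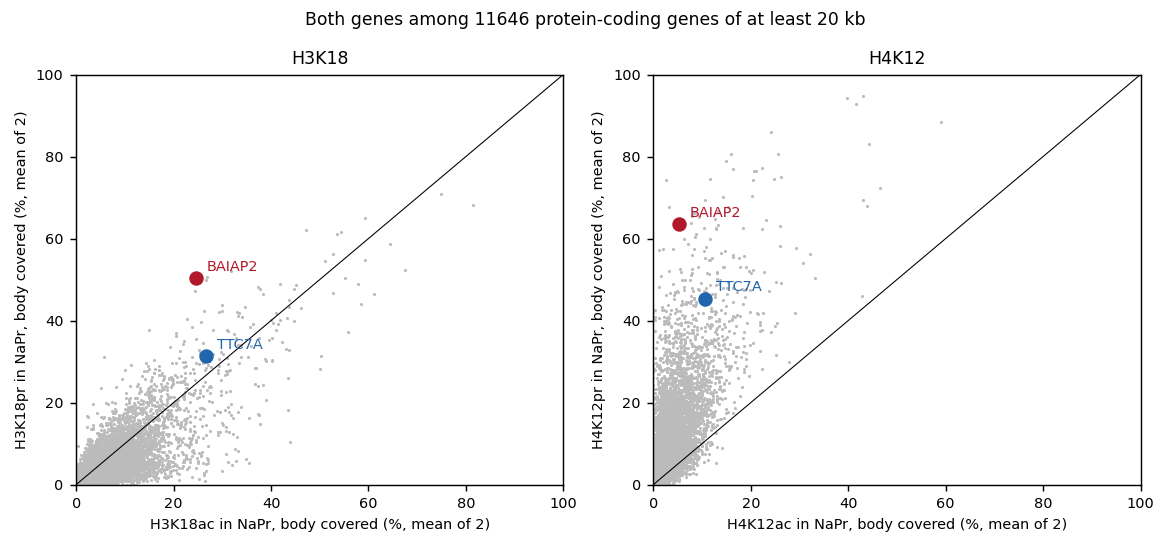
Mean body coverage of the propionyl mark (vertical axis, %) against that of the acetyl mark of the same site in NaPr (horizontal axis, %), for 11646 protein-coding genes of at least 20 kb in grey, with the line of equality. BAIAP2 lies at 24.6% and 50.4% for H3K18 and 5.20% and 63.5% for H4K12, and TTC7A at 26.7% and 31.3% and at 10.6% and 45.3%.

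Among the 11646 genes, BAIAP2 was one of the most covered in lists of several marks. Counting BAIAP2 itself, 16 and 18 genes were at least as covered by H3K18pr, 36 and 47 by H4K12pr, 35 and 44 by untreated H3K18ac and 30 and 54 by H3K18ac in NaBu. The median gene had 2.23% and 2.07% H3K18pr coverage. BAIAP2 also ranked high in the untreated input, with 2.98% against a median of 0.138% and 97 genes at least as covered. TTC7A was at least equalled by 103 and 78 genes for H3K18pr, 206 and 120 for H4K12pr, 146 and 174 for untreated H3K18ac and 75 and 82 for H4K12bu. These ranks describe genes selected on their propionyl against acetyl signal after propionate, so the propionyl ranks are not independent of the selection.

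Propionyl coverage of the 50 kb on either side was below that of the body at both genes, and nearer to it at TTC7A. In the 50 kb upstream of BAIAP2, H3K18pr covered 7.002% and 4.97%, and in the 50 kb downstream 11.2% and 7.78%. H4K12pr covered 26.5% and 12.4% upstream and 39.3% and 10.1% downstream. The neighbours of BAIAP2 are the protein-coding genes CHMP6, a subunit of the ESCRT-III membrane-remodelling machinery, AATK, a kinase that overlaps its 3′ end by 6948 bp, and PVALEF, with the divergent transcript BAIAP2-DT 240 bp before its start and 4 further lncRNAs. H3K18pr covered 6.76% and 1.95% of CHMP6, 10.0% and 6.98% of AATK, 7.87% and 12.0% of PVALEF and 12.0% and 15.7% of BAIAP2-DT. The lncRNAs ENSG00000263218 and ENSG00000262098 had 0% in both H3K18pr lists, ENSG00000262873 had 12.4% and 4.18%, and ENSG00000263167, 486 bp long, had 0% and 44.2%. No protein-coding neighbour of BAIAP2 had more than 38.4% H4K12pr coverage, against at least 57.1% for BAIAP2.

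Around TTC7A, H3K18pr covered 31.8% and 20.5% of the 50 kb upstream and 32.8% and 24.7% of the 50 kb downstream, against 34.0% and 28.7% of the body. The widest propionyl regions, at the 3′ end, stopped 161.1 to 163.5 kb after the gene start, in a body of 160.3 kb. MCFD2, a cargo receptor subunit of the early secretory pathway that overlaps the 5′ part by 25987 bp, had 21.2% and 14.1%. STPG4 and ENSG00000273269, which overlap the 3′ part by 30600 and 10197 bp, had 29.7% and 22.7%, and 28.1% and 22.5%. A pair of lncRNAs lies inside the domains. ENSG00000233845, at chr2:47035279-47040524 in the intron 15 domain, was covered at 96.0% and 85.8% by H3K18pr, and ENSG00000225187, at chr2:47067822-47071204 in the 3′ domain, at 100% and 83.2%. Untreated H3K18ac covered them at 93.2% and 75.2%, and at 95.6% and 73.8%. ENSG00000228925 had 4.12% and 0% H3K18pr. ENSG00000272814, 274 bp long, had 0% H3K18pr and 100% H4K12pr in both replicates. Regions carry no strand, so signal over overlapping genes cannot be assigned to 1 of them.

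Of 12 I-BAR family members and actin partners of BAIAP2, 2 had both H3K18pr above both H3K18ac in NaPr, beside 13.5% of all genes, 2 had both below and 8 overlapped. Their median difference was -1.31 points, against -0.727 over 17454 genes. The 2 above were BAIAP2L2, an I-BAR relative, at 5.84% and 3.32% H3K18pr against 1.26% and 0.910% H3K18ac, and WASF1, an activator of actin branching, at 2.322% and 2.321% against 1.56% and 2.17%. At H4K12, 10 of the 12 were above and 2 below, beside the 60.4% of all genes that were above, with a median of 5.57 points against 4.18. The largest was RAC1, the GTPase of lamellipodia, with 67.3% and 62.2% H4K12pr against 14.2% and 11.2% H4K12ac. RAC1 had 21.2% and 4.51% H3K18pr against 52.2% and 5.83% H3K18ac.

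Of 6 partners of TTC7A in the PI4KA complex, 1 had both H3K18pr above both H3K18ac, beside 13.5% of all genes. It was TTC7B, the close relative of TTC7A, at 5.65% and 5.63% against 4.08% and 2.07%. HYCC1, the scaffold partner that binds TTC7 proteins, was below, at 0% and 0.321% against 1.47% and 1.09%, and 4 overlapped. At H4K12, 3 were above, beside 60.4% of all genes, 1 was below and 2 overlapped, with a median of 0.907 points against 4.18 over 17447 genes. PI4KA, the lipid kinase itself, had 4.76% and 2.30% H4K12pr against 2.32% and 1.56% H4K12ac.

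The protein-coding genes of at least 20 kb whose body coverage was most like that of BAIAP2 over the 20 immunoprecipitated libraries were RALGDS, RTEL1-TNFRSF6B and MAPKAPK3. Their Euclidean distances were 21.5, 26.5 and 28.9 points, against a median of 139.4 over 11644 candidates. RALGDS, for example, had 56.5% and 44.8% H3K18pr, 28.7% and 25.2% H3K18ac in NaPr and 57.95% and 39.9% untreated H3K18ac. Those most like TTC7A were TIMP2, DDR1 and ABCC3, at 15.2, 15.3 and 19.4 points against a median of 99.9. TIMP2 had 33.2% and 26.2% H3K18pr, 57.9% and 48.0% H4K12pr and 31.1% and 27.0% untreated H3K18ac. BAIAP2 and TTC7A were 48.5 points apart, and 37 genes were nearer to BAIAP2 than TTC7A was.

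Base composition separated the genes more than the parts of a gene. In BAIAP2, bp covered by both H3K18pr and by no H3K18ac replicate were 59.99% GC, those covered by both of both marks 61.2% and those in no such list 60.7%. In TTC7A these parts were 51.2%, 54.7% and 48.9% GC. BAIAP2 held 10 AP-1 matches in its body, or 1.21 per 10 kb, and TTC7A held 34, or 2.12 per 10 kb. Of the 10 in BAIAP2, 1 lay in bp with both H3K18pr and no H3K18ac, 3 in bp with both of both marks and 0 in bp with neither mark. In TTC7A those counts were 3, 3 and 12 of 34. These counts are too small to compare.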

How the data were processed

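The authors aligned the reads of each library to GRCh38 (hg38) with Bowtie2 in an ENCODE-type pipeline and called peaks in each library by itself with MACS2. The submitters' processing notes list cutadapt 1.8.1, Bowtie2 2.3.1 and MACS2 2.1.0. By the names of the deposited lists, the p-value cut was 0.01. Each deposited region carries a fold enrichment (ratio to local background), a −log10 p, a −log10 q, a score, which was not used here, and a summit offset.

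Regions were placed on GENCODE 44 genes with Python 3 and numpy. Coverage was computed without pooling, regions of a list never overlapped, and body coverage was compared over protein-coding genes of at least 1 kb with a region in any of the 4 lists. Fragments per kb are the local background, near its lowest, that fold and −log10 p imply, divided by the shortest region. They are given where 100% of implied pileups lay within 0.1 of a whole number, which excluded the NaBu libraries and the untreated input. Depth as read counts is unknown, so no intervals for counting error are given, and no reads were analysed.

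Groups came from the sample labels. The named genes were the members, all neighbours within 50 kb, the partner lists and the 3 genes most alike to each member. Members, lists and tests were chosen with earlier results of these data known. Acetyl gaps were merged over both replicates. Sequences came from the hg38 genome and RefSeq tables, and motifs were searched on both strands. The interval code and the exact permutation tests were tested on simulated data. The alternatives were regions with q under 0.05, an equal number of regions (8158, the strongest by p), a minimum width of 350 bp, the body with 50 kb on both sides, gaps between regions of both acetyl replicates, leaving out each replicate, and a replicate block.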

Additional observations from a re-analysis of the deposited data

How the results depend on the processing

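Of 155 values recomputed for 16 results, 134 kept their verdict, 20 moved and 1 reversed. Keeping it meant the same direction and side of 0.05 for the tested differences, a shift under the replicate SD for other values, and a change within 1.5 times for a count. The exact permutation tests allowed no p below 0.0556, so the side of 0.05 could not change. A tested difference could thus lose its verdict only by reversing direction. With 50 kb on both sides included, the propionyl minus acetyl difference was 12.3 points for BAIAP2 at H3K18, 37.5 at H4K12 and 31.8 for TTC7A at H4K12. With an equal number of regions, H4K12 differences were 37.9 points in BAIAP2 and 19.9 in TTC7A, TTC7A H4K12 gaps were filled at 22.3%, and 2733 genes had both H4K12pr above both H4K12ac, against 10541 as reported. The tested differences kept their direction but were smaller in size than reported. They were -7.21 and -3.64 points for butyryl minus acetyl and -13.3 and -6.04 for NaBu minus untreated acetylation, BAIAP2 first. NaPr minus untreated acetylation at TTC7A was -5.36. BAIAP2 H4K12 gaps then gave no value, since too few H4K12ac regions were left. With the minimum width, gap filling was 42.1% for BAIAP2 at H3K18 and 44.2% for TTC7A at H4K12, and 3930 genes had both H3K18pr above both H3K18ac, against 2353. Gaps between regions of both acetyl replicates were filled at 53.6% in BAIAP2 and 21.2% in TTC7A at H3K18 and at 46.8% in TTC7A at H4K12. The cause of these changes was not tested.

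Leaving out each replicate gave 17.7 to 33.8 points for the H3K18 difference of BAIAP2 and -4.63 to 13.9 for TTC7A, the negative value arising without H3K18ac replicate 2. NaPr minus untreated acetylation at TTC7A was -15.2 to -5.90, the smallest without H3K18ac replicate 2 of NaPr. The H3K18 gap filling was 25.7% to 42.4% in BAIAP2 and 11.3% to 19.5% in TTC7A, and the H3K18 gene count 2967 to 8318. Without H3K18ac replicate 1 that count was 8318, and without H3K18pr replicate 1 or 2 it was 3866 or 4372.

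Replicate numbers are shared between groups, but no label says what they stand for. Deviations of same-numbered libraries correlated at 0.0596 to 0.257 over genes in 6 pairs of groups, so the numbers were not treated as pairs. With a replicate block, the differences were the same, -13.9 and -19.6 points at BAIAP2 and -8.49 and -15.7 at TTC7A, and all 4 exact permutation tests gave p = 0.125, the smallest that 16 arrangements allow. Lists record only signal past a threshold, so shallow libraries can miss weak regions.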
